A study of Mus musculus with 12 samples.

Results

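The genes described here are 10 chemokines that epithelium can make: Cxcl1, Cxcl2, Cxcl3, Cxcl5, Ccl20, Ccl2, Ccl7, Cxcl14, Cxcl16 and Cx3cl1. They were chosen by name, as attractants of neutrophils, monocytes and lymphocytes, by a rule that uses no measured value, though earlier results of these data were known when it was set. They make up 10 of the 55315 genes of the count table. RNA was sequenced from keratinocytes sorted out of mouse skin 3 days after wounding, in 12 libraries. Live Epcam+ integrin α6+ cells were taken from the wound edge, and cells carrying CD45 (leukocytes), CD31 (endothelium) or CD117 (melanocytes) were excluded. Integrin α5 divided the cells into an A5-positive fraction, which the study calls the migrating tongue, and an A5-negative fraction, which it calls the wound edge. The 4 groups of 3 libraries were wild-type A5-negative, wild-type A5-positive, RORγt-deficient A5-negative and RORγt-deficient A5-positive cells, all wounded and all harvested on day 3. The RORγt-deficient mice carry a GFP knock-in, and the age of the animals is not given in the sources used here. Each library was made from 2 or 3 mice pooled per group and sequencing run, so p-values reflect how libraries of pooled mice vary, and single animals were not measured. Integrin α5 split the sorted cells, so A5-positive and A5-negative libraries of a genotype may come from the same mice. The fits hold no term for such a shared pool. For the genotype effect averaged over the fractions, p-values may therefore be too small as a measure of how pools vary. There was no unwounded skin among the groups, so nothing below says what wounding itself changed.

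Chemokines are small secreted proteins that steer leukocytes through G-protein-coupled receptors. Keratinocytes release them after injury under the control of IL-1, TNF and IL-17, through NF-κB, its atypical partner IκBζ (Nfkbiz) and C/EBP factors, and IL-17 also slows the decay of several chemokine mRNAs. RORγt is the transcription factor that IL-17-producing lymphocytes need, so skin of mice without it lacks most lymphocyte-derived IL-17. CXC chemokines with an ELR motif draw neutrophils through CXCR2, CCL2 and CCL7 draw monocytes through CCR2, and CCL20 draws CCR6-bearing cells, among them IL-17-producing T cells.

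The promoters of 4 members are shown because they share an NF-κB-type sequence, the pathway through which IL-1, TNF and IL-17 are known to act on them. RefSeq promoter entries (GRCm38.p6) matched 6 of the 10 members: Cxcl1, Cxcl2, Cxcl3, Ccl20, Cxcl14 and Cx3cl1. The other members, Cxcl5, Ccl2, Ccl7 and Cxcl16, had no entry. The motif GGGNNTTTC, searched on both strands, was present in 4 of the 6, against 4.36% of 32851 promoters of the same length. Because this spelling was chosen after its matches had been seen, the 4 of 6 is no test of it. A wider spelling that contains it, GGGNNNTTC, was present in the same 4 of 6 and in 14% of all promoters. The AP-1-type motif TGANTCA was present in 0 of 6 (7.81% of all), and the hypoxia-type core ACGTG in 2 of 6, Cxcl1 and Cxcl3 (19.6% of all). Cxcl14 and Cx3cl1 held neither NF-κB-type spelling in this window. In the stretches of 100 bases below, all on the plus strand and all upstream of the annotated start, capitals mark GGGNNTTTC on either strand.
Cxcl1, chr5:90891105-90891204: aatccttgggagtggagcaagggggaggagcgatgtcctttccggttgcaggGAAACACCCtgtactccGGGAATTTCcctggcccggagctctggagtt
Cxcl2, chr5:90903759-90903858: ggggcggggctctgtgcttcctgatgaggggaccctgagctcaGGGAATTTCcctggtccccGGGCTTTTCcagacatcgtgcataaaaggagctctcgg
Cxcl3, chr5:90785961-90786060: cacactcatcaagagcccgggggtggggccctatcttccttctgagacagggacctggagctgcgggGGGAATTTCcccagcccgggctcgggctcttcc
Ccl20, chr1:83116626-83116725: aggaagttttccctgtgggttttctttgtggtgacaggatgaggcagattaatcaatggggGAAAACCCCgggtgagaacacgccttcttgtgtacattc
Cxcl1 and Cxcl2 each held 2 matches, and Cxcl3 and Ccl20 held 1 each. The matches began between -97 and -71 relative to the start, and Cxcl1, Cxcl2 and Cxcl3 shared the exact letters GGGAATTTC. Cxcl1, Cxcl2 and Cxcl3 are related genes close together on chromosome 5, so their matches may not be separate cases. A match describes the letters and does not show that a factor binds there.

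The libraries held 29259516 to 74474252 counts, and no 2 libraries of a group were alike to within counting error. Levels are CPM, read counts scaled to library size with TMM factors, given for libraries 1, 2 and 3 of a group in that order. Itga5, which encodes integrin α5, followed the sort, with 46.8 ± 4.92 CPM (SD, n = 3) in A5-negative against 94.4 ± 8.33 CPM in A5-positive libraries of wild-type mice, and 54.2 ± 6.92 against 122 ± 14.7 CPM in RORγt-deficient mice. The 10 keratinocyte markers summed to 39790 to 79320 CPM. The 12 fibroblast markers summed to 1543 to 2226 and 838.6 to 1879 CPM in wild-type and RORγt-deficient A5-negative cells but to 6705 to 9965 and 11050 to 18010 CPM in A5-positive cells, and none of them was at 0 counts in any group. Ptprc, the gene of CD45, stood at 39.3, 2.74 and 10.6 CPM in wild-type A5-negative cells, 25.3, 3.61 and 22.3 CPM in RORγt-deficient A5-negative cells and 3.13 to 6.41 CPM in A5-positive cells. Wild-type A5-negative library 1 stood apart, with 3657 CPM of the 10 Langerhans and dendritic cell markers against 320.3 to 1301 CPM elsewhere, and with 1865 CPM of the 13 macrophage markers against 554.3 to 1421 CPM. The neutrophil markers were low everywhere (5.09 to 19.1 CPM over 11 genes, Elane at 0 counts in every group and Ly6g in all but wild-type A5-positive cells). T cell markers summed to 5.2 to 18.3 CPM, mast cell markers to 0 to 0.437 CPM, endothelial markers to 2.78 to 47.6 CPM and melanocyte markers to 8.37 to 23.7 CPM.

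Cxcl16 and Cxcl14 were the most abundant of the chemokine transcripts, and Cxcl3 and Cxcl5 the rarest. Per kilobase of exon, the median level over the 12 libraries was 184 CPM for Cxcl16, 157.7 for Cxcl14, 55.1 for Cxcl1 and 44.6 for Ccl2. It was 33.6 CPM per kilobase for Cxcl2, 21.2 for Cx3cl1, 20.6 for Ccl7, 17.5 for Ccl20, 1.48 for Cxcl3 and 0.630 for Cxcl5. Neighbours in this order overlapped in their ranges over libraries, except Ccl20 and Cxcl3. Cxcl14 exceeded Cxcl1 in 12 of 12 libraries and Ccl20 exceeded Cxcl3 in 12 of 12, whereas Cx3cl1 exceeded Ccl7 in only 7 of 12. Together the 10 genes took 630.8 to 1652 CPM, of which Cxcl16 alone held 32.7% to 60.3%. All 10 passed the filter on low counts that left 16677 genes to test. Cx3cl1 varied least over libraries (highest over lowest, 2.01) and Cxcl3 most among the genes counted in every library (11.7).

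**Figure D1:**
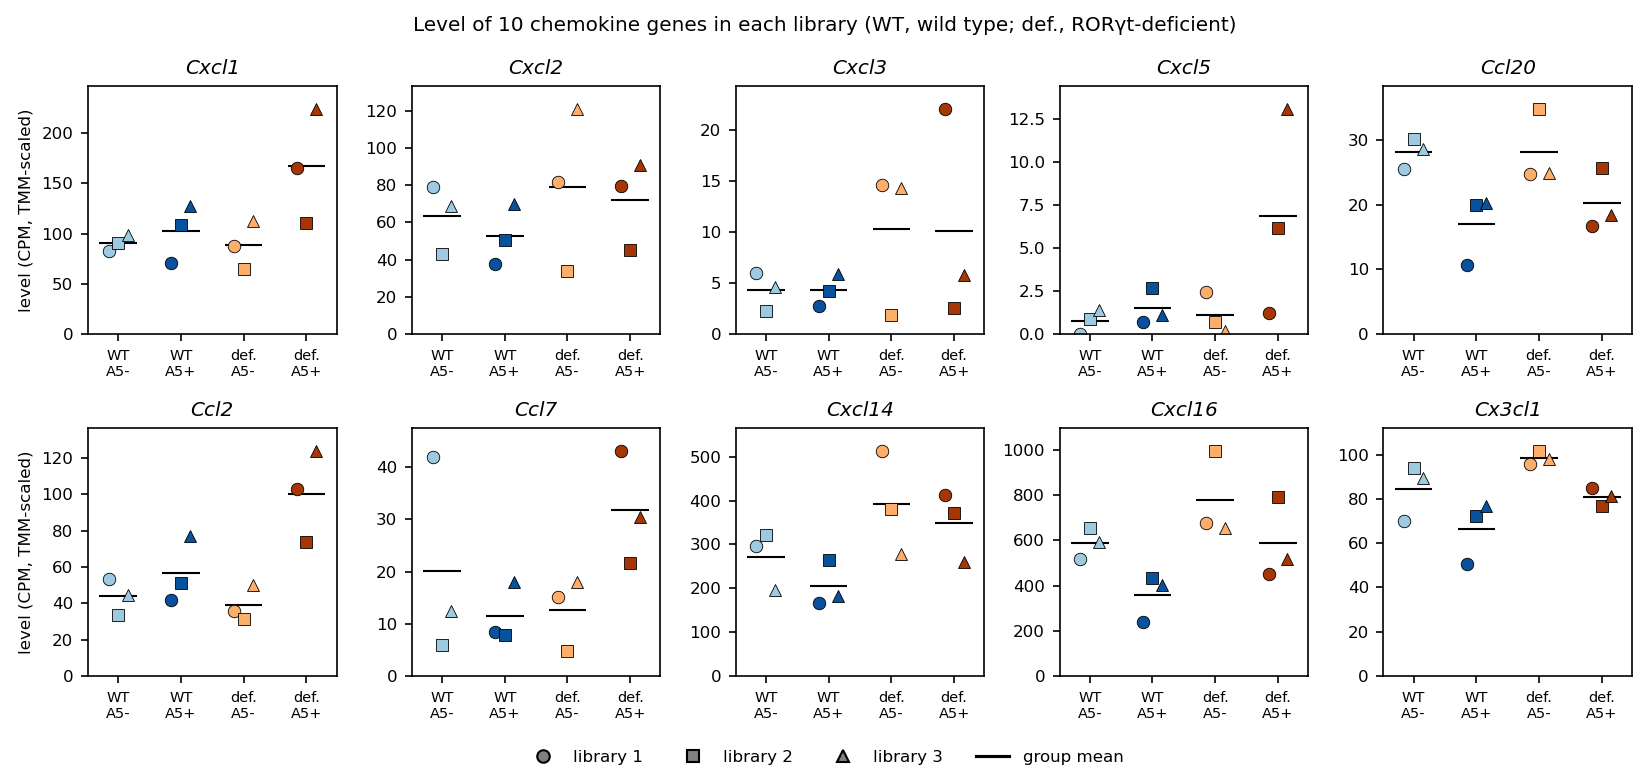
Level of each of the 10 chemokine genes (y axis, TMM-scaled CPM from 0) in the 12 libraries, by genotype and A5 fraction (x axis); symbols give the library number and bars the mean of 3 libraries. Ccl2 in RORγt-deficient A5-positive cells (73.8 to 124 CPM) lies above the A5-negative libraries of that genotype, and Cxcl16 falls below 450 CPM only in wild-type A5-positive cells.

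Set against all genes, the chemokines gave few calls without pairing of the libraries and more with it. Between A5 fractions of RORγt-deficient mice 1 of 10 members changed in edgeR's quasi-likelihood test (Ccl2, higher), against 5.52% of all genes (4.56% higher), and between those of wild-type mice 0 of 10 changed, against 3.45%. The genotype comparison gave 0 of 10 in A5-negative cells (0.006% of all genes), 0 of 10 in A5-positive cells (0.006%) and 0 of 10 averaged over the fractions (0.054%). At an unadjusted p under 0.05 these 4 comparisons without a call held 2, 0, 5 and 4 members (20.5%, 5.09%, 15% and 19.8% of all genes). DESeq2 called 1 member among them, Cxcl14 for genotype averaged over the fractions, and voom called 0. For A5 in RORγt-deficient mice 2 members, Ccl2 and Cxcl1, were called by DESeq2, by voom and by edgeR without the filter. The same-numbered libraries of the 4 groups deviated together, so each comparison was also fitted with this number as a block. That fit called 2 of 10 members for A5 in wild type, both lower (14.4% of all genes, 5.59% lower), and 3 for A5 in RORγt-deficient mice, all higher (17.6%, and 10.1% higher). For genotype it called 0 in A5-negative cells (0.006%), 3 in A5-positive cells, all higher (4.02%, and 2.26% higher), and 2 averaged over fractions, both higher (12.1%, and 6.97% higher). These comparisons share their 4 groups, so their values are given side by side. The averaged genotype comparison counts the 2 fractions of a genotype as separate libraries, though they may share mice. In bulk samples a change in the share of cells of one type and a change in RNA per cell cannot be told apart.

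In direction, all 10 members were above 0 for genotype in A5-positive cells, where 50.2% of all genes were, with a median log2 change of 0.74 against 0.00 over all genes. All 10 were also above 0 for genotype averaged over the fractions (50.4% of all genes, median 0.39 against 0.00). This direction held in both scalings, TMM and RLE, but without RORγt-deficient A5-positive library 1 Cxcl3 stood at -0.02, and without all libraries numbered 1 at -0.27, and without wild-type A5-positive library 1 Ccl20 averaged over the fractions stood at -0.01. The 10 members share the same libraries, so their directions are not separate observations. Wild-type A5-positive library 1 lay below its group mean for every member, from -0.266 (Cxcl14) to -0.599 (Cxcl5) in log2 units. Together the members took 630.8 CPM there, against 1013 and 979.7 CPM in libraries 2 and 3 of that group. In A5-negative cells 7 of 10 were above 0 for genotype (50% of all genes, median 0.27). For A5 in wild-type mice 7 of 10 were below 0 (47.9% of all genes, median -0.31 against 0.03), and in RORγt-deficient mice 6 of 10 (50%, median -0.07). The levels of the compared groups did not overlap for 2 members for A5 in wild type (25% of all genes), 3 for A5 in RORγt-deficient mice (25.6%), 2 for genotype in A5-negative cells (15.6%) and 3 for genotype in A5-positive cells (18.1%). These counts are near the background of all genes in each case.

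**Figure D2:**
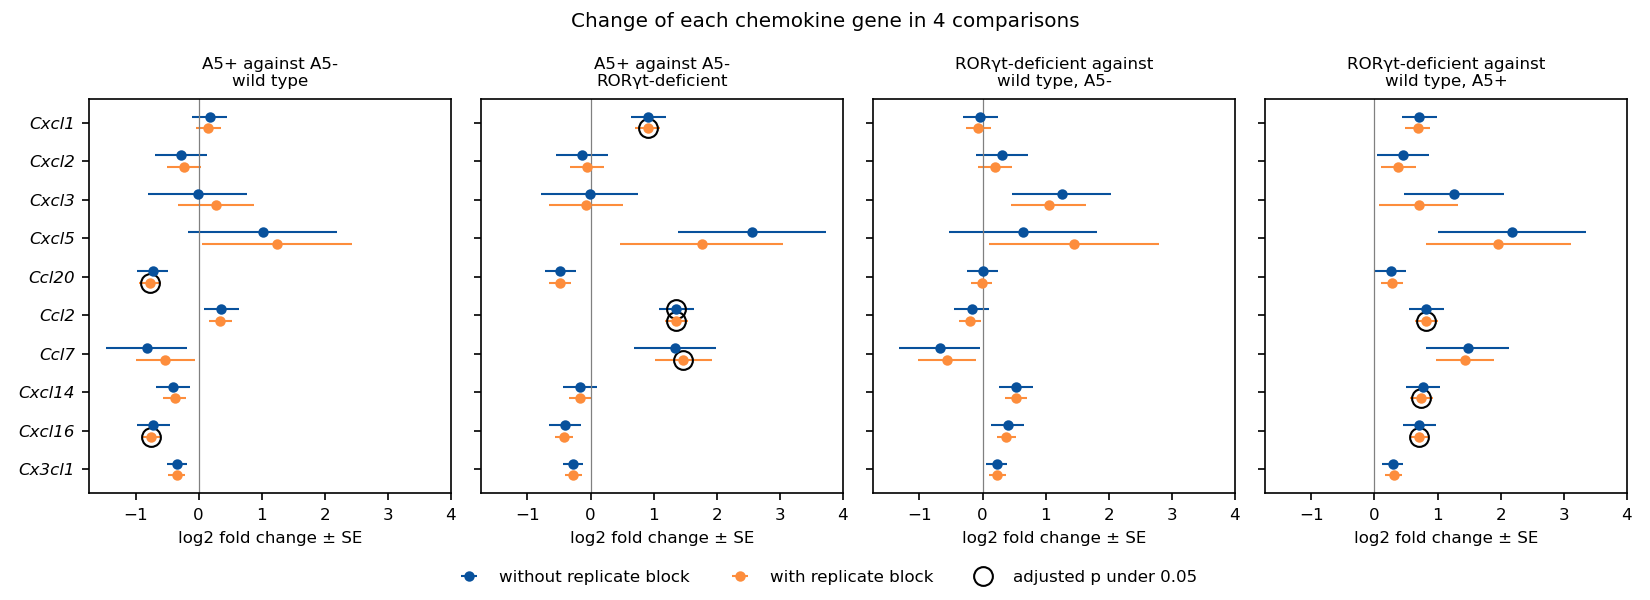
Log2 fold change ± SE (x axis) of each chemokine gene (y axis) in 4 comparisons, from the fit without (blue) and with (orange) the library number as a block; rings mark an adjusted p under 0.05. Without the block the ring stands only at Ccl2 between A5 fractions of RORγt-deficient mice (1.36 ± 0.28), and every gene lies right of 0 in the last panel.

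The neutrophil attractants were led by Cxcl1, which was highest in RORγt-deficient A5-positive cells. Cxcl1 (ENSMUSG00000029380.11, GRCm38 chromosome 5, 90891241 to 90893115) encodes KC, a main CXCR2 ligand of mouse tissue. In wild-type mice it stood at 82.7, 90.4 and 98.5 CPM in the A5-negative libraries against 71.1, 108 and 127 CPM in the A5-positive ones, which overlap. In RORγt-deficient mice it stood at 87.5, 65.0 and 113 CPM in the A5-negative libraries against 165, 111 and 224 CPM in the A5-positive ones, where A5-positive library 2 alone dips below A5-negative library 3. In these mice the A5 effect was 0.92 ± 0.28 (fold 1.89, 95% interval 1.24 to 2.87, edgeR's quasi-likelihood test, adjusted p = 0.082). It was called by DESeq2 (adjusted p = 0.0217), by voom (0.032) and by edgeR without the filter on low counts (0.0153). With the block Cxcl1 rose by 0.91 ± 0.20 (adjusted p = 0.0117). This call held in 10 of 12 fits that left out 1 library, and ended when RORγt-deficient A5-positive library 1 (adjusted p = 0.0705) or 3 (0.0677) was the one left out. In wild-type mice the A5 effect was 0.17 ± 0.28 (fold 0.746 to 1.71). The genotype effect was 0.71 ± 0.28 in A5-positive cells (adjusted p = 0.276) and -0.03 ± 0.27 in A5-negative cells (fold 0.645 to 1.48).

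Cxcl2 (ENSMUSG00000058427.10, chromosome 5, 90903871 to 90905938), which encodes the CXCR2 ligand MIP-2, passed no test. In wild-type mice it stood at 79.0, 42.9 and 69.0 CPM in the A5-negative libraries against 37.7, 50.3 and 69.8 CPM in the A5-positive ones. In RORγt-deficient mice it stood at 81.8, 33.6 and 121 CPM in the A5-negative libraries against 79.6, 45.2 and 91.0 CPM in the A5-positive ones. Library 2 was the lowest in 3 of the 4 groups, and all groups overlapped. The A5 effect had an interval of 0.442-fold to 1.54-fold in wild-type and 0.489-fold to 1.70-fold in RORγt-deficient mice, and the genotype effect one of 0.732-fold to 2.56-fold in A5-positive cells. Cxcl3 (ENSMUSG00000029379.10, chromosome 5, 90786103 to 90789600), a close relative of Cxcl2, was rarer. It stood at 5.93, 2.29 and 4.57 CPM in wild-type A5-negative and 2.78, 4.17 and 5.82 CPM in wild-type A5-positive libraries. RORγt-deficient mice had 14.6, 1.89 and 14.2 CPM in the A5-negative libraries against 22.1, 2.53 and 5.75 CPM in the A5-positive ones. The mean of the RORγt-deficient groups was thus carried by 3 of 6 libraries, and library 2 was the lowest of its group in both. Neither genotype effect passed the test (1.26 ± 0.79 in both fractions, adjusted p = 0.779 in A5-negative and 0.455 in A5-positive cells). Of the 50-base windows of the Cxcl2 transcripts, 5.84% occur in Cxcl3, and 4.29% of those of Cxcl3 occur in other genes, so reads there depend on how multiply matching reads were counted.

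Cxcl5 (ENSMUSG00000029371.7, chromosome 5, 90759360 to 90761624), which encodes the neutrophil attractant LIX, was near the limit of detection. In wild-type A5-negative cells it had 0 counts in library 1, where 3 counts would have been 0.0538 CPM, and 0.876 and 1.40 CPM in libraries 2 and 3. Wild-type A5-positive cells had 0.718, 2.70 and 1.11 CPM, and RORγt-deficient A5-negative cells 2.44, 0.716 and 0.190 CPM. RORγt-deficient A5-positive cells had 1.24, 6.15 and 13.1 CPM, the highest group mean (6.83 ± 5.96 CPM, SD, n = 3), with library 1 inside the range of the other groups. The A5 effect in RORγt-deficient mice was 2.56 ± 1.18 (fold 5.90, 95% interval 0.993 to 35, adjusted p = 0.231), and edgeR called none of the 6 comparisons with all libraries, with or without the block. Voom with the block called this A5 effect (4.33, adjusted p = 0.034). So did edgeR with the block when library 1 of RORγt-deficient A5-negative cells was left out (4.31, adjusted p = 0.037) and the unblocked fit without all libraries numbered 1 (4.38).

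Ccl20 (ENSMUSG00000026166.14, chromosome 1, 83116766 to 83119167), the ligand of CCR6, stood lower in A5-positive cells of wild-type mice, a difference called only with the block. It stood at 25.6, 30.2 and 28.7 CPM in wild-type A5-negative and 10.6, 20 and 20.4 CPM in wild-type A5-positive libraries. RORγt-deficient mice had 24.8, 34.9 and 24.9 CPM in the A5-negative libraries against 16.8, 25.7 and 18.4 CPM in the A5-positive ones. The wild-type fractions did not overlap, whereas in RORγt-deficient mice A5-positive library 2 lay above 2 A5-negative libraries. The wild-type A5 effect was -0.73 ± 0.25 (fold 0.603, adjusted p = 0.135), and with the block Ccl20 fell by 0.77 ± 0.17 (edgeR's quasi-likelihood test, adjusted p = 0.0173). That call held in 8 of 12 fits. It ended on leaving out either library 1 (adjusted p = 0.0715) or library 3 (0.081) of wild-type A5-negative cells, and likewise for wild-type A5-positive library 1 (0.0796) and library 2 (0.0729). In RORγt-deficient mice the A5 effect was -0.48 ± 0.25 (adjusted p = 0.285, and 0.0735 with the block). The genotype effect was 0.00 ± 0.25 in A5-negative cells (95% interval 0.687-fold to 1.46-fold) and 0.26 ± 0.25 in A5-positive cells (0.817-fold to 1.75-fold), intervals that leave out a change of 2-fold in either direction. The means were 28.2 ± 2.35 CPM in wild-type and 28.2 ± 5.82 CPM in RORγt-deficient A5-negative cells (SD, n = 3).

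The monocyte attractants Ccl2 and Ccl7 were highest in RORγt-deficient A5-positive cells. Ccl2 (ENSMUSG00000035385.5, chromosome 11, 82035571 to 82037453) encodes MCP-1. It stood at 53.5, 33.7 and 44.6 CPM in wild-type A5-negative and 41.6, 51.3 and 76.8 CPM in wild-type A5-positive libraries, which overlap. In RORγt-deficient mice it stood at 35.8, 31.1 and 50.2 CPM in the A5-negative libraries against 103, 73.8 and 124 CPM in the A5-positive ones, which do not. Ccl2 rose by 1.36 ± 0.28 between these fractions (fold 2.57, 95% interval 1.69 to 3.89, higher in 3 of 3 libraries, edgeR's quasi-likelihood test, adjusted p = 0.013). With the block the change was 1.36 ± 0.18 (adjusted p = 0.000828) and was called in 12 of 12 fits that left out 1 library. In the fit without the block the call ended on leaving out either library 1 (adjusted p = 0.067) or library 2 (0.0751) of RORγt-deficient A5-negative cells, and likewise for A5-positive library 1 (0.0504) and library 3 (0.0641). In wild-type mice the A5 effect was 0.36 ± 0.27 (fold 0.853 to 1.94). The genotype effect in A5-positive cells was 0.83 ± 0.27 (adjusted p = 0.22), and 0.82 ± 0.18 with the block (adjusted p = 0.0401), a call kept in 3 of 12 fits that left out 1 library, with adjusted p-values of up to 0.162. In A5-negative cells it was -0.17 ± 0.27 (fold 0.589 to 1.34).

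Ccl7 (ENSMUSG00000035373.2, chromosome 11, 82045712 to 82047525) lies next to Ccl2 and encodes MCP-3, another CCR2 ligand. It stood at 41.9, 6.02 and 12.4 CPM in wild-type A5-negative and 8.46, 7.84 and 18.0 CPM in wild-type A5-positive libraries. RORγt-deficient mice had 15.1, 4.73 and 17.9 CPM in the A5-negative libraries against 43.2, 21.6 and 30.4 CPM in the A5-positive ones. Every RORγt-deficient A5-positive library thus lay above every A5-negative library of that genotype and every wild-type A5-positive library, while wild-type A5-negative library 1 was near the highest of them. The A5 effect in RORγt-deficient mice was 1.33 ± 0.65 (adjusted p = 0.251), and with the block Ccl7 rose by 1.47 ± 0.46 (adjusted p = 0.047), a call kept in 3 of 12 fits with 1 library fewer. The genotype effect in A5-positive cells was 1.48 ± 0.65 (adjusted p = 0.316, and 0.0902 with the block). Wild-type A5-negative library 1 also had the most Ptprc, and the part of leukocyte RNA in its Ccl7 was not tested. This library decided the direction elsewhere. Without it the A5 effect in wild type went from -0.82 ± 0.65 to 0.31 and the genotype effect in A5-negative cells from -0.68 ± 0.64 to 0.45, none of which passed the test. Without it the blocked calls for Ccl7 also included genotype in A5-positive cells (1.52, adjusted p = 0.04) and genotype averaged over the fractions (0.90, adjusted p = 0.0467).

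Fibroblast marker RNA was more abundant in the A5-positive libraries of both genotypes. With the block Ccl2, Ccl7 and Cxcl1 also rose there in RORγt-deficient mice. In wild-type mice their A5 effects with the block were 0.34, -0.53 and 0.15, none of them called. That of Ccl7 was 0.23 when wild-type A5-negative library 1 was left out. For none of these genes was the A5 effect shown to differ between genotypes. Of the 12 markers 10 rose between A5 fractions in each genotype (3.12% of all genes in wild-type and 4.56% in RORγt-deficient mice), by a median of 4.92 in wild-type and 5.71 in RORγt-deficient mice. For genotype in A5-positive cells 10 of 12 were above 0 with a median of 1.12, and 0 passed the test (1 with the block). Postn, at 742.9 to 2965 CPM, was high in both fractions and was set aside after its values were seen. The other 11 markers summed to 313.8, 175.6 and 322.6 CPM in wild-type A5-negative and 546.9, 95.7 and 145.9 CPM in RORγt-deficient A5-negative libraries. They summed to 4111, 6122 and 8341 CPM in wild-type A5-positive and 15240, 9781 and 16170 CPM in RORγt-deficient A5-positive libraries. Among the 6 A5-positive libraries, those with more fibroblast marker RNA also had more Ccl2, library by library in the same order except for RORγt-deficient library 2 and wild-type library 3. Every RORγt-deficient library of these had a higher marker sum than every wild-type one. In this order genotype and fibroblast marker RNA thus cannot be told apart. The A5-negative libraries held 31.1 to 53.5 CPM of Ccl2 and 65.0 to 113 CPM of Cxcl1. The part of fibroblast RNA in the changes of these genes was not tested.

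**Figure D3:**
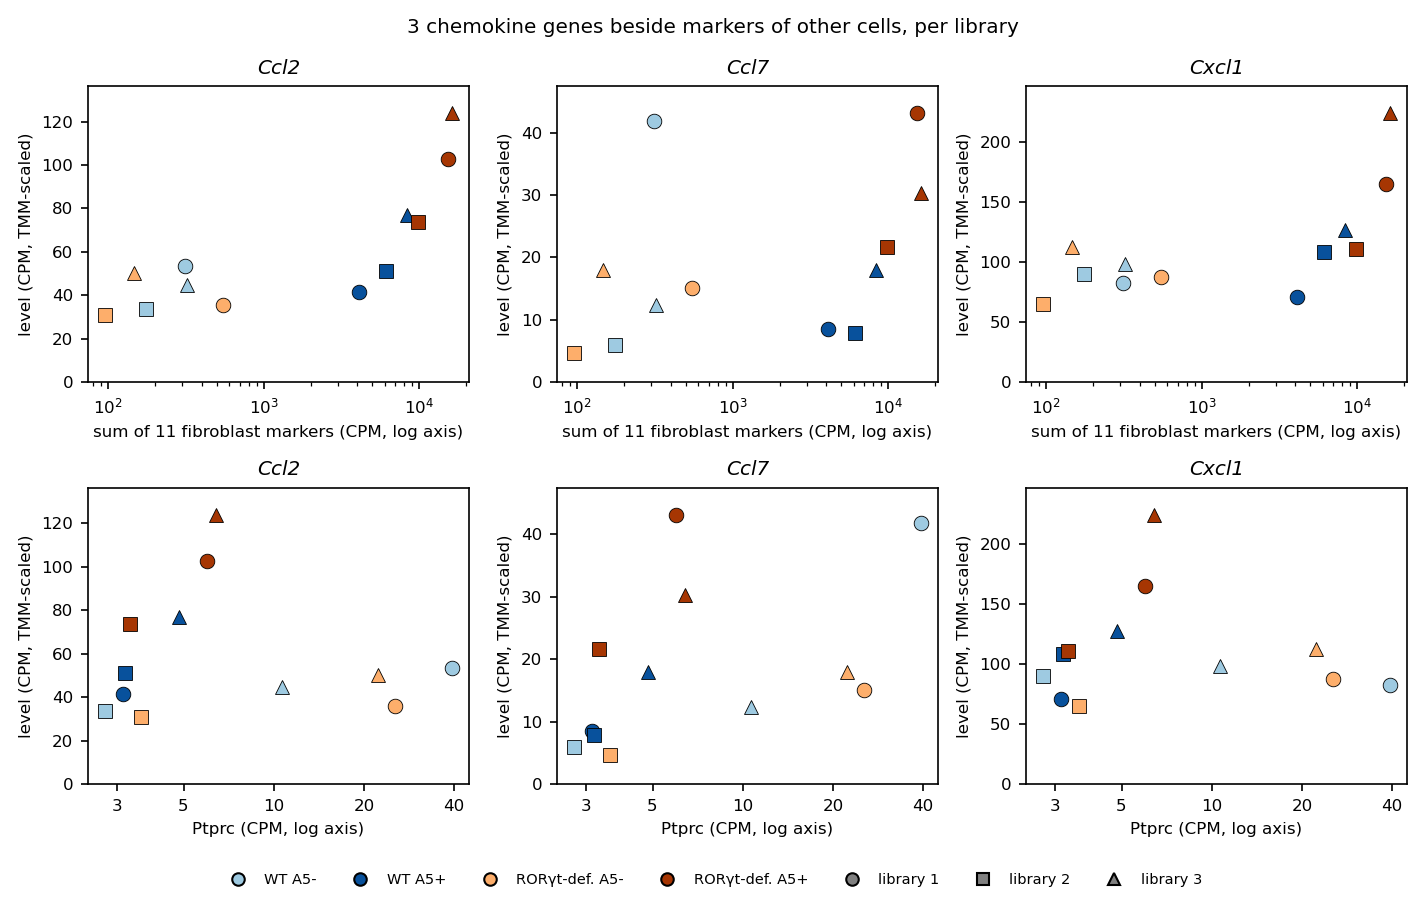
Levels of Ccl2, Ccl7 and Cxcl1 (y axes, TMM-scaled CPM) in each library against the sum of 11 fibroblast markers (upper row) and against Ptprc (lower row), both on log axes in CPM; colours give the group and symbols the library number. The A5-positive libraries lie at 4111 CPM or more of fibroblast markers and the A5-negative ones at 546.9 CPM or less, and the wild-type A5-negative library with 41.9 CPM of Ccl7 also has the most Ptprc (39.3 CPM).

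Cxcl14 and Cxcl16, the most abundant members, stood higher in RORγt-deficient cells, a difference that edgeR with the filter on low counts called only with the block. Cxcl14 (ENSMUSG00000021508.11, chromosome 13, 56288643 to 56296551) encodes a chemokine that resting epidermis makes constitutively and that attracts monocyte-derived and dendritic precursors. It stood at 297, 322 and 196 CPM in wild-type A5-negative and 166, 265 and 182 CPM in wild-type A5-positive libraries. RORγt-deficient mice had 514, 382 and 279 CPM in the A5-negative libraries against 412, 372 and 259.7 CPM in the A5-positive ones. Within each number the RORγt-deficient library was the higher one in A5-negative cells (3 of 3) and in A5-positive cells (3 of 3), but the groups overlapped, because library 3 was low in both genotypes. Averaged over the fractions the genotype effect was 0.65 ± 0.19 (fold 1.57, adjusted p = 0.14). Without the block DESeq2 (adjusted p = 0.0299) and edgeR without the filter (adjusted p = 0.0467) called it, and with the block Cxcl14 rose by 0.64 ± 0.13 (edgeR's quasi-likelihood test, adjusted p = 0.0137). This call held in 11 of 12 fits and ended when wild-type A5-negative library 2 was left out (adjusted p = 0.0531). In A5-positive cells alone the genotype effect was 0.77 ± 0.27 (adjusted p = 0.241), and 0.74 ± 0.18 with the block (0.0451, kept in 2 of 12 fits). In A5-negative cells it was 0.53 ± 0.27 (adjusted p = 0.779, and 0.22 with the block).

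Cxcl16 (ENSMUSG00000018920.11, chromosome 11, 70453983 to 70459984) encodes a membrane-anchored ligand of CXCR6, a receptor of skin-homing and resident T cells. It stood at 517, 654 and 594 CPM in wild-type A5-negative and 241, 431 and 402 CPM in wild-type A5-positive libraries. RORγt-deficient mice had 677, 996 and 655 CPM in the A5-negative libraries against 450.3, 789.9 and 518 CPM in the A5-positive ones. The wild-type fractions did not overlap, and neither did the genotypes within a fraction, though in A5-negative cells the gap was 654.5 against 654.8 CPM. Scaled to total counts, the genotypes overlapped in A5-negative cells (657.3 CPM in wild-type library 2, 652.5 CPM in RORγt-deficient library 3). The wild-type A5 effect was -0.72 ± 0.26 (adjusted p = 0.152), and with the block Cxcl16 fell by 0.75 ± 0.15 (edgeR's quasi-likelihood test, adjusted p = 0.00955). That call held in 9 of 12 fits and ended when wild-type A5-negative library 3 (adjusted p = 0.064) was left out, and likewise for A5-positive library 1 (0.0535) and library 2 (0.0578). In RORγt-deficient mice the A5 effect was -0.41 ± 0.26 (adjusted p = 0.379, and 0.0681 with the block). Averaged over the fractions the genotype effect was 0.56 ± 0.18 (fold 1.47, adjusted p = 0.162), and with the block Cxcl16 rose by 0.54 ± 0.10 (adjusted p = 0.012), a call that ended when library 2 of wild-type A5-negative (0.0613) or A5-positive cells (0.0505) was left out. In A5-positive cells the blocked genotype effect was 0.71 ± 0.15 (adjusted p = 0.0377, kept in 4 of 12 fits). Exons of Cxcl16 overlap those of Zmynd15 on the other strand by 552 bases, and 16.9% of the 50-base windows of Cxcl16 occur in Zmynd15. Without a stated strand setting reads of the pair cannot be told apart there. Zmynd15 itself was counted at 3.33 to 17.7 CPM. This does not limit the Cxcl16 reads affected, because the treatment of reads shared by genes is not stated.

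Cx3cl1 (ENSMUSG00000031778.13, chromosome 8, 94772009 to 94782427), the membrane-bound fractalkine that holds CX3CR1-bearing monocytes and dendritic cells, was the steadiest member. It stood at 69.8, 93.9 and 89.2 CPM in wild-type A5-negative and 50.6, 72.2 and 76.8 CPM in wild-type A5-positive libraries. RORγt-deficient mice had 95.6, 102 and 97.9 CPM in the A5-negative libraries against 84.7, 76.9 and 81.5 CPM in the A5-positive ones. The RORγt-deficient libraries did not overlap with the wild-type ones in either fraction, though in A5-positive cells the gap was 76.8 against 76.94 CPM. Scaled to total counts, the genotypes overlapped in both fractions. A5-negative cells then had 94.3 CPM in wild-type library 2 against 93.5 CPM in RORγt-deficient library 2. A5-positive cells had 78.0 CPM in wild-type library 3 against 75.1 CPM in RORγt-deficient library 2. The A5 fractions of RORγt-deficient mice did not overlap. None of these differences passed the test. The A5 effect was -0.34 ± 0.16 in wild-type (adjusted p = 0.251, and 0.104 with the block) and -0.28 ± 0.16 in RORγt-deficient mice (adjusted p = 0.32). The genotype effect averaged over fractions was 0.25 ± 0.11 (95% interval 1.01-fold to 1.42-fold, adjusted p = 0.241, and 0.0811 with the block).

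Whether the A5 effect differed between genotypes was asked with the interaction of genotype and A5. It passed for 0 of 10 members (0% of all genes), with 0 genes called in all, 458 at an unadjusted p under 0.05, 8 called by DESeq2 and 0 by voom. Ccl2 had an interaction of 1.0 ± 0.38 (fold 2.00, 95% interval 1.12 to 3.57, unadjusted p = 0.0234) and Ccl7 one of 2.16 ± 0.92 (unadjusted p = 0.0364), in edgeR's quasi-likelihood test, and the adjusted p was 1 for both (0.914 with the block). Without wild-type A5-negative library 1 the value of Ccl7 was 1.02. Cxcl1 had 0.74 ± 0.39 (95% interval 0.930-fold to 3.01-fold). So the higher Ccl2 of RORγt-deficient A5-positive cells is not shown to be a different A5 response from that of wild-type cells. For the other 7 members the intervals reached from at most 0.742-fold to at least 1.47-fold.

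The number of a library went with the level of most chemokines. Ccl7 was lowest in the library numbered 2 in 4 of 4 groups, and Cxcl2, Cxcl3 and Ccl2 in 3 of 4. Cxcl16 was highest in library 2 in 4 of 4 groups and Ccl20 in 3 of 4, opposite to Ccl7, Cxcl2, Cxcl3 and Ccl2 in the same pools. Ccl20 was lowest in library 1 in 4 of 4 groups, Cxcl1 highest in library 3 in 4 of 4, and Cxcl14 lowest in library 3 in 3 of 4. Averaged over groups, library 2 deviated by -0.82 for Ccl7, -0.93 for Cxcl3 and 0.33 for Cxcl16, in log2 units from the group mean. Ptprc was also lowest in library 2 in both A5-negative groups and in RORγt-deficient A5-positive cells. The labels do not say what the numbers share, and the part of leukocyte RNA in this pattern was not tested.

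**Figure D4:**
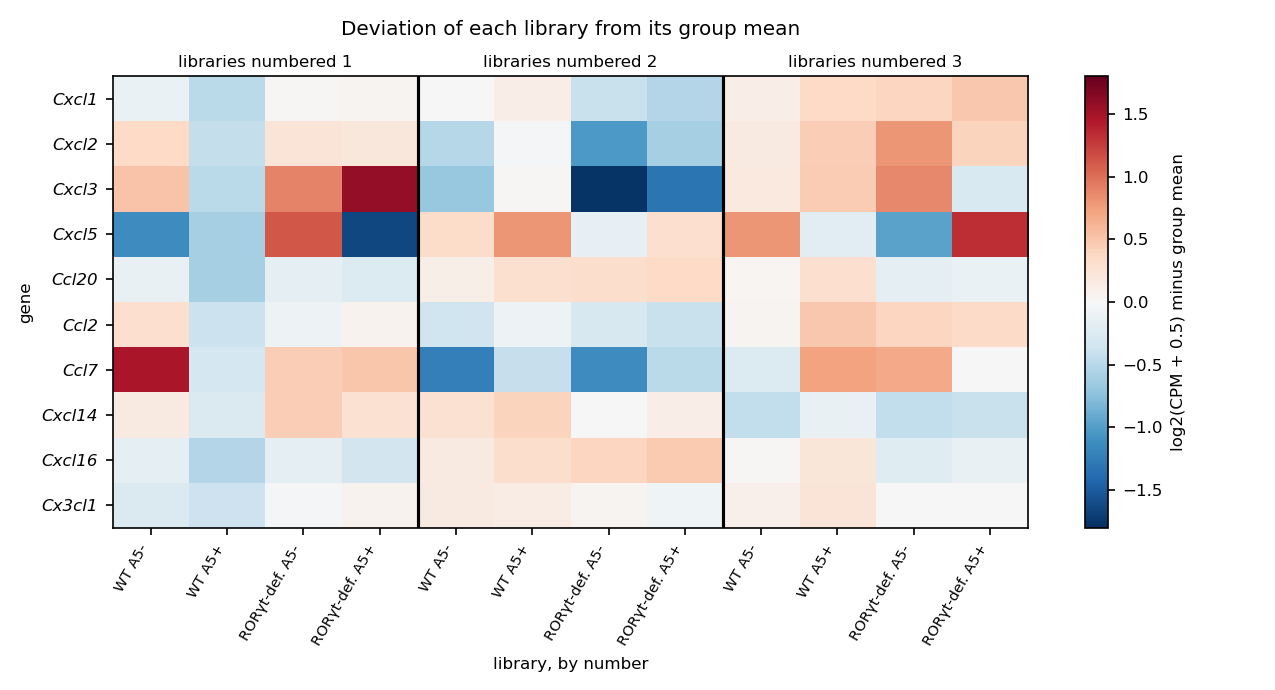
Deviation of each library from its group mean for each chemokine gene (rows), in log2(CPM + 0.5), with the libraries (columns) ordered by their number. The 4 libraries numbered 2 are below their group mean for Ccl7 and above it for Cxcl16.

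Among the 30 other chemokine genes 19 were tested. In RORγt-deficient mice 2 of the 19 rose in A5-positive cells (4.56% of all genes) and 0 fell. Ccl11, the eosinophil attractant eotaxin, rose by 6.07 ± 0.76 (adjusted p = 0.000563), from 0.231, 0.0859 and 0.222 CPM to 16.1, 7.03 and 14.7 CPM. Ccl19, a CCR7 ligand of lymphoid stroma, had 0 counts in all 3 A5-negative libraries and 2.38, 1.43 and 1.12 CPM in A5-positive ones, at least 81.2-fold higher with a floor of 3 counts over the group (adjusted p = 0.00152). Both are known from stromal cells, and they rose beside the fibroblast markers, whose part in this was not tested. In wild-type mice 0 of 19 passed in edgeR, against 3.45% of all genes (5 at an unadjusted p under 0.05, against 20.5%, with 2 called by DESeq2 and 1 by voom), and with the block Ccl11 and Ccl19 rose and Ccl27a fell. For genotype in A5-positive cells 0 of 19 passed (6 unadjusted, against 15% of all genes, 2 by DESeq2 and 0 by voom), 17 of 19 were above 0 (50.2% of all genes), and with the block Ccl11, Ccl27a and Cxcl12 rose. Ccl27a, a keratinocyte chemokine of skin-homing T cells, was there at 62.5, 56.6 and 82.2 CPM in wild-type and 133, 90.5 and 99.1 CPM in RORγt-deficient libraries (0.67 ± 0.15 with the block, adjusted p = 0.0404). With 1 library left out, the blocked fit for genotype in A5-positive cells called 6 to 1248 genes. Whether the blocked calls of this and the following lists outlast such a loss is not given here.

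Of 23 chemokine receptors 15 were tested, and 0 passed in edgeR without the block in any comparison. At an unadjusted p under 0.05 there were 8 and 6 for A5 in wild-type and RORγt-deficient mice (20.5% and 21.8% of all genes) and 2 for genotype in A5-negative and in A5-positive cells (5.09% and 15%), and DESeq2 called 3, 5, 0 and 2 in the same order, and voom 0, 2, 0 and 0. Ccrl2, an atypical receptor that holds chemerin at the cell surface, came closest. It stood at 25.5, 14.9 and 22.3 CPM in wild-type A5-negative and 7.14, 10.4 and 13.4 CPM in wild-type A5-positive libraries, and at 46.1, 31.2 and 42.2 against 26.7, 21.6 and 19.5 CPM in RORγt-deficient mice. In each fraction every RORγt-deficient library lay above every wild-type one. With the block Ccrl2 rose for genotype averaged over the fractions (1.04 ± 0.17, adjusted p = 0.00892) and in A5-positive cells (1.13 ± 0.24, adjusted p = 0.0388), and it fell with A5 in both genotypes. Cxcr2, the receptor of the neutrophil attractants and also a neutrophil marker, fell with the block for genotype in A5-positive cells (-1.46 ± 0.29, adjusted p = 0.0362), from 8.46, 7.12 and 11.3 CPM to 3.37, 2.38 and 3.95 CPM. Ccr4 also fell with A5 in both genotypes with the block. In the interaction Ackr1, an atypical receptor, had the smallest p of the list (adjusted p = 1). With the block Ackr1 rose with A5 in RORγt-deficient mice (8.23 ± 1.91, adjusted p = 0.0203). It was near the floor there, at 0 CPM in every A5-negative library and 0.532, 0.213 and 0.105 CPM in the A5-positive ones. For genotype averaged over the fractions Ackr1 (-3.97 ± 1.08, adjusted p = 0.0465) and Cxcr2 (-1.08 ± 0.21, adjusted p = 0.0119) fell with the block. Wild-type Ackr1 was carried by library 1 of each fraction, with 2.26 CPM for A5-positive and 1.79 CPM for A5-negative. The other wild-type libraries had 0 to 0.085 CPM. Both wild-type libraries numbered 1 also had the highest endothelial marker sums (47.6 and 19.1 CPM), whose part was not tested. The blocked genotype effect of Ackr1 was 0.23 ± 0.89 (adjusted p = 0.904) within the A5-positive fraction and -8.17 ± 1.86 (0.157) within the A5-negative one.

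The 22 inducers and regulators of chemokine mRNA were all tested, and 0 passed in edgeR without the block in any comparison. For genotype averaged over the fractions 18 had an unadjusted p under 0.05 (19.8% of all genes), DESeq2 called 9 and voom 0. With the block 16 rose and 2 fell for genotype averaged over the fractions (12.1% of all genes called in either direction), and the 2 that fell were Il17rc and Tnfrsf1a. In A5-positive cells 8 rose and 1 fell (4.02%), in a comparison whose blocked calls ran from 6 to 1248 genes with 1 library left out. Il17ra, the shared IL-17 receptor chain, rose (0.70 ± 0.15 with the block, adjusted p = 0.0378), from 68.2, 130 and 99.9 CPM to 120, 234 and 134 CPM. Il17rc, its partner chain, fell (-0.62 ± 0.11, adjusted p = 0.0327), from 540, 537 and 524 CPM to 389, 338 and 316 CPM. Nfkbiz, Rela and Nfkb2 of the NF-κB system also rose there, by 0.59 ± 0.14, 0.57 ± 0.13 and 0.61 ± 0.13. So did Zfp36l1 and Arid5a, which bind chemokine and cytokine mRNAs, Il1r1 and Cebpd. With the block 8 of the 22 fell and 0 rose with A5 in wild-type mice (5.59% of all genes fell) and 5 fell and 0 rose in RORγt-deficient mice (7.54%), among them Tnfaip3, Zc3h12a, Zfp36 and Arid5a in both. Genes outside the naming rule here, as those given with the block only, were chosen after their values were seen.

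The list of 24 keratinocyte genes known to rise with IL-17, of which 19 were tested, did not move one way with genotype. In A5-positive cells 10 were above 0 and 9 below, with a median of 0.15, and 0 passed in edgeR (7 unadjusted, against 15% of all genes, 4 by DESeq2 and 0 by voom). In A5-negative cells Lcn2, which encodes a bacteriostatic lipocalin, had the smallest p (-0.74 ± 0.30, adjusted p = 0.779). In A5-positive cells Il6 had it (0.98 ± 0.23, adjusted p = 0.178), and with the block Il6 and Nfkbiz rose there while S100a8 (-2.63 ± 0.63, adjusted p = 0.0451), Stfa1 and Serpinb3a fell. S100a8, an antimicrobial calgranulin subunit that neutrophils also carry, went from 3.75, 3.00 and 2.96 CPM to 0.551, 0.274 and 0.758 CPM. With A5, Il19 (2.31 ± 0.47, adjusted p = 0.0205), Saa3 (5.41 ± 1.16, adjusted p = 0.0252) and Stfa1 (2.25 ± 0.56, adjusted p = 0.0488) rose in wild-type mice and Saa3 in RORγt-deficient mice (6.03 ± 1.13, adjusted p = 0.00833). With the block 5 rose and 2 fell with A5 in wild-type mice (14.4% of all genes called in either direction). In RORγt-deficient mice 5 rose and 1 fell with the block (17.6%). Those that rose included Il19 (1.56 ± 0.46, adjusted p = 0.0415) and Stfa1 (1.61 ± 0.41, adjusted p = 0.0225), and DESeq2 called both there. The interaction of genotype and A5 passed for neither. Adam10 and Adam17, the proteases that shed CXCL16 and CX3CL1, passed no test (1 had an unadjusted p under 0.05, for genotype in A5-positive cells, and neither was called by DESeq2 or voom) and had group means of 100.2 to 153.9 CPM.

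The closest profiles over the 12 libraries were named by the root mean square (RMS) distance of centred log2(CPM + 0.5) values, among about 9218 genes with a mean of at least 8 CPM. Angptl2 (0.172) and Plpp3 were among the closest to Ccl2. Cxcl1 was closest to Slc27a6 (0.207), Dapk1 and Runx2, Cxcl2 to Elmo1 (0.208), Slco2b1 and Tlr2, and Cxcl3 to Cxcl2 (0.627), Prex1 and Cmpk2. Ccl7 was closest to Ccl8 (0.389), Lgals3bp and Lhfpl2, and Ccl8 stood at 70.8, 3.16 and 10.7 CPM in wild-type A5-negative cells, again high in library 1. Cxcl5 had no near neighbour (Loxl4, 0.814, then P4ha2 and Lamb1). Ccl20 was closest to Sh3d21 (0.108), Rsrc2 and Eps8l1, Cxcl16 to Ist1 (0.098), Stk40 and Sqstm1, Cxcl14 to Man1c1 (0.133), Plscr4 and Cd59a, and Cx3cl1 to Nfatc1 (0.077), Fbrsl1 and Trib1. Among the members themselves Ccl20 and Cxcl16 were the closest pair (0.217), followed by Cxcl1 and Ccl2 (0.262) and by Ccl20 and Cx3cl1 (0.270), while Cxcl3 and Cxcl5 were the farthest (1.69). All points share the same 12 libraries, and a small distance says nothing of shared function or control.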

How the data were processed

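RNA-seq read counts per gene were deposited by the authors as whole numbers, with no normalization, for 12 libraries. Per the submitters' processing notes, bcl2fastq, Trimmomatic 0.36, STAR and featureCounts were used with the build mm10 (GRCm38). Of the annotation release, the strand setting and the treatment of multiply matching reads nothing is stated in the labels. Per the labels' protocols, libraries were made with SMART-Seq v4 and ThruPLEX kits from pools of 2 or 3 mice. A spreadsheet had turned 26 of 55341 gene symbols into dates, and these rows, 0.11% to 0.128% of a library's counts, were left out. GENCODE M21 held all 55315 remaining symbols and gave their positions and exon lengths.

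The quasi-likelihood F test of edgeR 4.0.16 (R 4.3.3) was fitted to the 4 groups in 1 model of 12 libraries, with TMM factors (0.919 to 1.08) and the filter filterByExpr by group, which kept 16677 genes. The Benjamini-Hochberg method adjusted the p-values of each of 6 comparisons over all tested genes, and the threshold was 0.05. Changes are log2 fold changes ± standard error, and intervals are 95%. Residuals correlated above 0.1 in all 18 pairs of same-numbered libraries (0.153 to 0.722, median 0.452, over 9071 genes), so the numbers were taken to pair libraries. The 36 other pairs had a median of -0.24. Residuals from a group mean balance within the group, so this negative value follows from the positive one and is no separate evidence. For the members blocked values stand wherever they change a call, and for the other lists only some blocked calls are given. What the numbers share is not stated in the labels, and a sequencing run is a possibility.

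The members, by name, and the lists were chosen with earlier results of these data known. Named were all members in every comparison, and from each list at most the 3 called genes of smallest p, or the 1 of smallest p where none was called. Also named were the sort genes and, for each member, the 3 closest profiles. Some items that this rule named are not reported here. Alternatives were RLE factors, DESeq2 1.42.0, no filter, at least 5 CPM in 3 libraries, the block, voom with quality weights (limma 3.58.1), fits to only the libraries compared, leaving out each library (with and without the block) or number (without it), and, after seeing the data, RLE and voom with the block. On simulated counts for A5 in wild type (16677 genes) the test without the block recovered 51 of 100 genes changed 2-fold and 97 of 100 changed 4-fold. The changed genes were drawn from those with a mean above 3 CPM, and the simulated libraries shared no effect of their number. The recovery thus does not cover genes as rare as Cxcl5 or the fit with the block. Reads carry no molecular identifiers, so limits set by counts cover counting error only.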

Additional observations from a re-analysis of the deposited data

How the results depend on the processing

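With the replicate block the genes called went from 575 to 2394 for A5 in wild type, from 921 to 2937 for A5 in RORγt-deficient mice, from 1 to 670 for genotype in A5-positive cells and from 9 to 2018 averaged over fractions, and members called from 0, 1, 0 and 0 to 2, 3, 3 and 2. With the block and RLE factors the genes were 2444, 2965, 716 and 2071, and with the block and voom 2410, 1908, 692 and 1311 (2 for genotype in A5-negative cells, against 1), with the same numbers of members, though for A5 in RORγt-deficient mice block and voom called Cxcl5 in place of Ccl7. DESeq2 called 1457 and 1719 genes for A5, 21, 477 and 962 for genotype in A5-negative, in A5-positive and averaged, and 8 for the interaction (against 0), with 2 members for A5 in RORγt-deficient mice and 1 averaged. Without the filter there were 939 genes (A5, wild type), 7, 67 and 310 (genotype in A5-negative, in A5-positive and averaged), and again 2 and 1 members. Voom called 989 and 1566 genes for A5 in wild-type and RORγt-deficient mice, 7 and 5 for genotype in A5-negative and A5-positive cells, and 2 members for A5 in RORγt-deficient mice. The compared libraries alone gave 344 genes for A5 in wild type, and the stricter filter 4 averaged. Leaving out 1 library or number gave 38 to 628 and 135 to 1731 genes for A5, 1 to 2 and 1 to 3 for genotype in the fractions and 1 to 16 averaged, with 0 to 2 members for A5 in RORγt-deficient mice. With the block those were 579 to 3067, 1073 to 3080, 1 to 4, 6 to 1248 and 390 to 2143 genes, and 0 to 3, 1 to 4, 0 to 0, 0 to 3 and 0 to 4 members. The cause of these shifts was not tested. Signs turned both where a change was near 0 and for some larger changes, and no value of turned sign passed the threshold. The larger ones included Ccl7 for A5 in wild type (-0.824) and for genotype in A5-negative cells (-0.679). They also included Cxcl3 for genotype in A5-positive cells (1.259), and Cxcl5 for genotype in A5-negative cells (0.639) and in the interaction (1.543). Cxcl3 for A5 in wild type (-0.01) was 0.278 with the block, 0.129 with voom, 0.24 with block and RLE and 0.033 with block and voom. Ccl20 for genotype in A5-negative cells (0.002) was -0.004 with RLE and with DESeq2, -0.002 without the filter, -0.012 with the block, -0.093 with voom, -0.021 with block and RLE and -0.027 with block and voom, where Cxcl5 was -1.12. In the interaction Cxcl3 (-0.001) was 0.017 with RLE, 0.005 with DESeq2 and 0.046 with the stricter filter, Cxcl14 was -0.044 with voom, and Cxcl2 was -0.031 with block and voom. With 1 library left out (with or without the block) or 1 number (without it), A5 in wild type ran from -0.098 to 0.374 (Cxcl1), -0.642 to 0.1 (Cxcl2), -0.578 to 0.878 (Cxcl3) and -1.612 to 0.487 (Ccl7), and A5 in RORγt-deficient mice from -0.521 to 0.295 (Cxcl2), -1.327 to 0.583 (Cxcl3) and -0.381 to 0.055 (Cxcl14). Genotype in A5-negative cells ran from -0.258 to 0.141 (Cxcl1), -0.151 to 0.666 (Cxcl2), -1.305 to 2.645 (Cxcl5), -0.185 to 0.096 (Ccl20), -0.427 to 0.055 (Ccl2) and -1.318 to 0.454 (Ccl7), in A5-positive cells from -0.266 to 1.838 (Cxcl3), and averaged from -0.014 to 0.282 (Ccl20). The interaction ran from -0.283 to 0.649 (Cxcl2), -1.5 to 0.882 (Cxcl3), -0.916 to 3.637 (Cxcl5) and -0.071 to 0.239 (Cx3cl1). Cxcl5 had the lowest level of the members, with 0 counts in 1 library. Of the group mean levels 1 moved by more than its SD when scaled to total counts, Cx3cl1 in RORγt-deficient A5-negative cells (95.2 against 98.4 CPM).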
